A study of Drosophila melanogaster with 14 samples.

Results

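A set of 9 genes that mark *Drosophila* glia or carry out glial functions were followed through 14 RNA-seq libraries: *repo*, *Gat*, *alrm*, *nrv2*, *zyd*, *moody*, *Eaat1*, *Gs2* and *wrapper*. They were selected by name, and all 9 were found, under the same FlyBase identifier, in both the flight muscle table and the wing disc table, which together list 18128 genes. The tested lines were homozygous for a Tet null allele, which removes the *Tet* transcript and is lethal at the pupal stage, or for a catalytic dead allele (Tet CD), which is viable and was made in the Tet-GFP knock-in. The control lines were Tet-GFP, with GFP fused in frame to the C-terminus of the TET protein, and wild type (w1118, written w11118 in the sample labels). Indirect flight muscle (IFM) was dissected from thoraxes of pupae at 96 h after puparium formation (96 h APF) and gave 2 libraries each of Tet null, Tet CD, Tet-GFP and wild type. Wing discs were dissected from wandering larvae of the last instar and gave 3 libraries each of Tet null and wild type. All flies were raised at 25 °C, and the animals pooled per library are not given in the sources used here, so P-values measure the spread between these libraries.

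Glia ensheath axons, insulate the nervous system, clear and recycle transmitters and buffer ions. The homeodomain protein Repo switches on the differentiation program of nearly all fly glia. Astrocyte-like glia take up GABA and glutamate at synapses, cortex glia wrap neuron cell bodies, and subperineurial glia form the blood-brain barrier with septate junctions. Motor axons that run to the flight muscle are wrapped by peripheral glia and release glutamate at the muscle.

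Levels are given as RPKM (reads per kilobase of exon, scaled to library size), which compares genes per length. With the depth chosen to bring most values onto whole reads, at least 97.9% of values between 0.5 and 6.5 reads in each library lay within 0.02 of a whole read, which gave estimated depths, in units of 1e6 reads, of 35.7 to 49.1 in IFM and 21.5 to 31.2 in discs. *Tet* itself was at 0.219 to 0.405 RPKM in Tet null IFM, against 3.66 to 4.19 RPKM in Tet CD and Tet-GFP and 2.04 to 3.01 RPKM in wild type, and at 0.352 to 0.475 RPKM in Tet null discs, against 148 to 205 RPKM in wild-type discs. In the sample labels the tissue of Tet null IFM library 1 is given as wing disc, against its title, age and table; here the summed level of 9 flight muscle markers was 35092 to 45199 RPKM in both Tet null IFM libraries, against 36623 to 41381 RPKM in wild type. Wild-type wing disc library 2 stood apart: the median of 119 odorant and gustatory receptor genes, which neither tissue is known for, was 2.12 RPKM there and 0.0273 to 0.132 RPKM in the other 5 disc libraries. In IFM that median was at most 0.087 RPKM, in Tet null library 2.

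The glial label was compared with the data first. In IFM all 9 genes were detected in every library, at very unequal levels. *Gs2* and *Eaat1* had at least 16.1 RPKM in each of the 8 IFM libraries, whereas *repo* stayed between 0.424 and 1.39 RPKM, which corresponds to 49 to 194 reads, and *wrapper* between 0.0283 and 0.762 RPKM, or 2 to 74 reads. In wing discs *nrv2* was the highest of the 9 (35.8 to 55.8 RPKM), while *repo* in the 5 libraries other than wild-type library 2 was at 0.0591 to 0.574 RPKM. The *nrv2* level of discs thus stood beside little *repo*, and *nrv2* is also known as a septate junction component of epithelia. *gcm*, the gene that starts glial fate in the embryo, was at 0 in 4 of the 8 IFM libraries and did not pass 0.0644 RPKM in the others.

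In Tet null IFM, *Gat*, *alrm*, *nrv2* and *zyd* were higher than in wild type, by 2.39 to 10.8-fold on the log2(RPKM + 0.5) scale, and both Tet null libraries were above both wild-type libraries for all 8 members that passed the limit on low values (a mean of at least 0.5 RPKM). A gene was called at an adjusted P under 0.05 (limma, Benjamini-Hochberg over all genes tested) and a fold change over 1.5. By this rule 4 of the 8 tested members were called higher and 0 lower, where 5.50% of all 8466 genes tested were called higher and 2.79% lower. The median log2 fold change of the 8 members was 1.21, against -0.0333 over all genes tested. *zyd* passed the limit only through its Tet null libraries, and without it 3 of 7 tested members were called higher, with a median of 1.16. The separation of both Tet null from both wild-type libraries, upwards, was found in 29.0% of all genes tested. In whole dissected muscle, more glial cells and more RNA of these genes per cell cannot be told apart, and which cells the RNA came from was not tested.

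**Figure D1:**
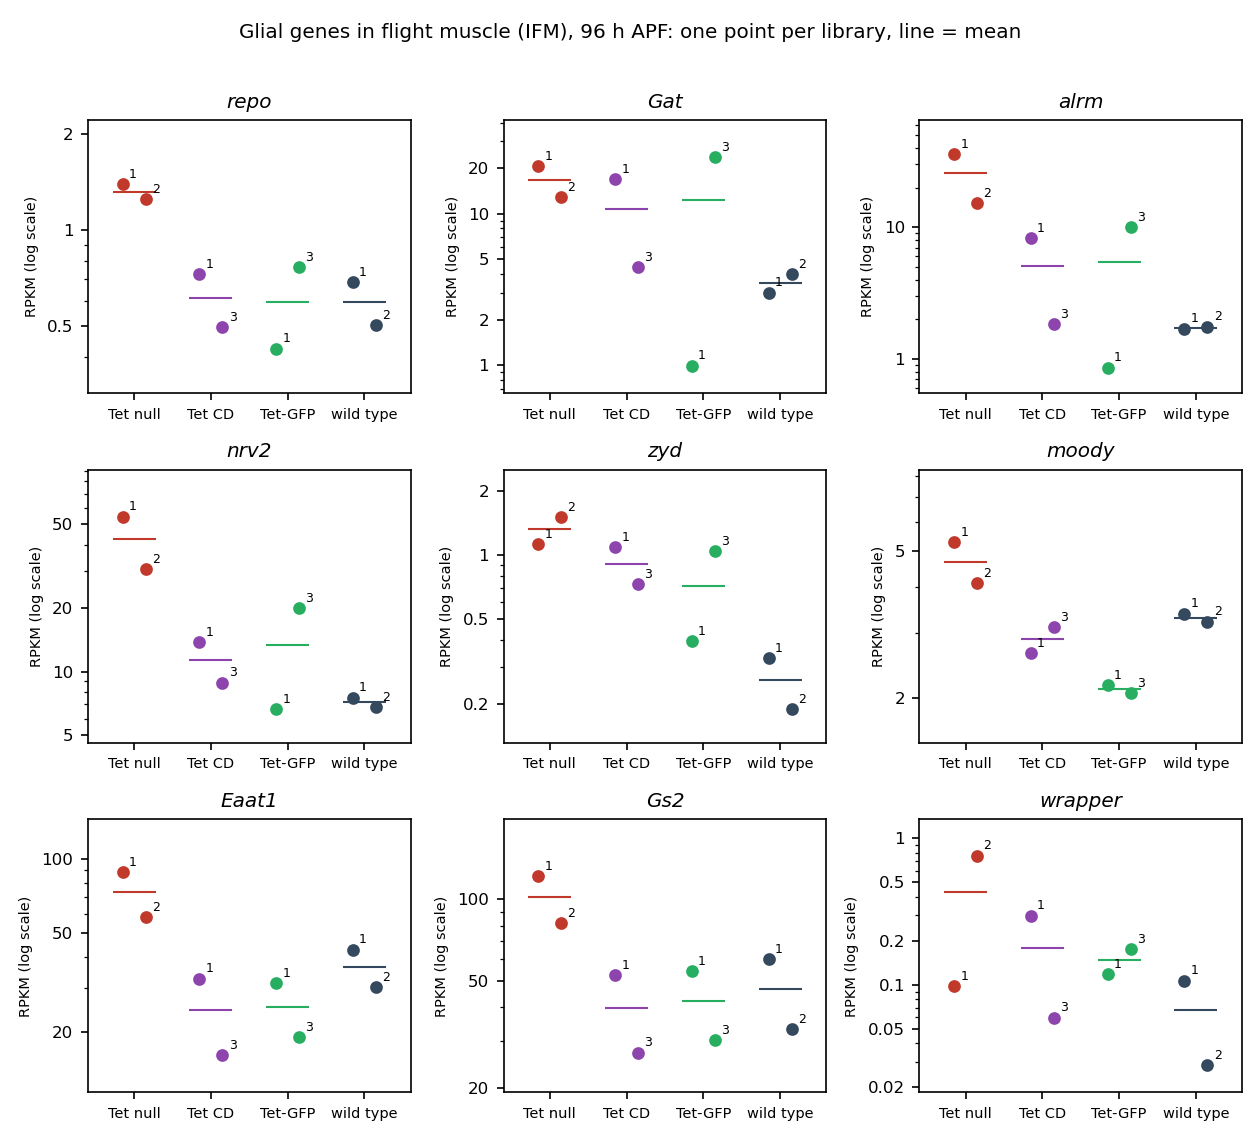
RPKM (log scale) of the 9 glial genes in each IFM library of Tet null, Tet CD, Tet-GFP and wild type; points are libraries with their column number and lines are group means. Both Tet null points lie above all 6 others for *repo*, *alrm*, *nrv2*, *zyd*, *moody*, *Eaat1* and *Gs2*, whereas Tet-GFP library 3 reaches 23.6 RPKM for *Gat*.

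*repo* (dm6, 3R:18236192-18239602, plus strand), the glial fate gene, was measured at 1.39 and 1.25 RPKM in the Tet null libraries of IFM, compared with 0.686 and 0.504 RPKM in those of wild type. Tet CD had 0.727 and 0.496 RPKM and Tet-GFP 0.424 and 0.765 RPKM. Both Tet null libraries were above the other 6, and the values of those 6 overlapped between groups. The log2 fold change of Tet null against wild type was 0.74 ± 0.20 (SE), which did not pass the threshold (adjusted P = 0.102). Of the exon length of *repo*, 6.11% is shared with *CG7156* on the opposite strand, and whether the counting used strand is not given in the sources used here.

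*alrm* (3R:25381065-25382781, minus strand) encodes a leucine-rich repeat protein found in astrocyte-like glia. The Tet null muscles had 36.0 and 15.3 RPKM of it, and the wild-type muscles 1.70 and 1.76 RPKM. This was the largest change among the members, with a log2 fold change of 3.43 ± 0.44 and an adjusted P of 0.0289. Tet CD had 8.30 and 1.85 RPKM, and Tet-GFP had 0.86 and 10.0 RPKM, so that 1 library of each of these lines lay near wild type and the other well above it.

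*Gat* (4:629691-635350, plus strand) encodes the GABA transporter of astrocyte-like glia. Its level was 20.7 and 12.9 RPKM in Tet null muscle and 3.01 and 3.97 RPKM in wild-type muscle, a log2 fold change of 2.09 ± 0.32 (adjusted P = 0.0372). Tet CD had 16.9 and 4.45 RPKM and Tet-GFP 0.994 and 23.6 RPKM. *Gat* was the 1 tested member whose Tet null values were not above all other lines, since Tet-GFP library 3 was the highest of the 8, and its 2 Tet-GFP libraries differed 23.8-fold. A transposon fragment of the INE-1 family is annotated within 9.98% of its exon length.

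*nrv2* (2L:6789770-6798862, minus strand) encodes a beta subunit of the sodium pump. Tet null muscle had 54.5 and 30.8 RPKM, wild-type muscle had 7.55 and 6.78 RPKM, and the log2 fold change was 2.44 ± 0.34 (adjusted P = 0.0335). Tet CD had 13.8 and 8.89 RPKM and Tet-GFP 6.65 and 20.1 RPKM, all below both Tet null libraries. *zyd* (X:23022898-23035550, plus strand) encodes a potassium-dependent sodium/calcium exchanger of cortex glia. Its level was low, at 1.13 and 1.51 RPKM (233 and 327 reads) in Tet null IFM, against 0.329 and 0.19 RPKM (55 and 30 reads) in wild type. The log2 fold change was 1.26 ± 0.23, with an adjusted P of 0.0491 that lay just inside the threshold. Tet CD had 1.09 and 0.733 RPKM and Tet-GFP 0.394 and 1.04 RPKM, so the highest value of each of these lines came within 0.1 RPKM of the lower Tet null value.

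*moody* (X:2044292-2050120, minus strand), a G protein-coupled receptor of the subperineurial barrier, had 5.29 and 4.09 RPKM in Tet null muscle and 3.39 and 3.22 RPKM in wild-type muscle. Tet CD had 2.65 and 3.12 RPKM and Tet-GFP 2.17 and 2.06 RPKM. Of the 9 genes *moody* had the closest library pairs, which differed at most 1.29-fold within a line. Its log2 fold change of 0.44 ± 0.21 in Tet null against wild type did not pass (adjusted P = 0.269, 95% interval -0.12 to 0.998).

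Glutamate taken up by glia through the transporter Eaat1 is turned into glutamine by glutamine synthetase 2, the product of *Gs2*. *Eaat1* (2L:9333567-9341925, plus strand) had 88.3 and 58.2 RPKM in Tet null muscle and 42.9 and 30.2 RPKM in wild-type muscle. *Gs2* (X:11422832-11430197, plus strand) had 122 and 81.7 RPKM in Tet null muscle, compared with 60.0 and 33.1 RPKM in wild-type muscle. Both genes had higher values in the Tet null libraries than in any other IFM library. Tet CD had 32.8 and 16.1 RPKM of *Eaat1* and 52.5 and 27.1 RPKM of *Gs2*, and Tet-GFP had 31.5 and 19.0 RPKM of *Eaat1* and 54.4 and 30.1 RPKM of *Gs2*. The log2 fold changes of Tet null against wild type were 0.99 ± 0.34 for *Eaat1* (adjusted P = 0.159) and 1.16 ± 0.41 for *Gs2* (adjusted P = 0.164), so neither passed the threshold. *wrapper*, on chromosome arm 2R, encodes an immunoglobulin-domain protein of midline and cortex glia and had 0.0976 and 0.762 RPKM (9 and 74 reads) in Tet null IFM, against 0.107 and 0.0283 RPKM (8 and 2 reads) in wild type. Tet CD had 0.297 and 0.0597 RPKM and Tet-GFP 0.118 and 0.176 RPKM, so the lines overlapped. The mean of *wrapper* was below the limit on low values, and it was not tested in IFM.

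The 4 calls of Tet null against wild type depended on the fit. None was left with low-value genes kept in (limma adjusted P 0.0541 to 0.0846). Nor was any left when all 4 IFM groups shared one estimate of the spread. The share of all genes called in these fits is not given, so the loss cannot be read as particular to the members. All 4 stayed called with median-ratio scaling, with the spread modelled without a trend and with the receptor-gene median subtracted. They also stayed called by limma-voom on reads recovered from the RPKM values. With any 1 of the 4 libraries left out, their log2 fold changes were 1.11 to 4.03. Such a fit leaves 1 library in a line, too few to read calls from it. The direction was higher in Tet null for all 8 tested members in each of these fits.

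All tested members but *Gat*, 7 of 8, had both Tet null libraries above the other 6 IFM libraries, a pattern found in 18.2% of the 8344 genes with a mean of at least 0.5 RPKM over the 8 libraries. Against Tet-GFP, the other control line, 0 of 8 tested members were called in Tet null IFM, where 1 gene in 8369 was called in either direction (0.0119%). At an unadjusted P under 0.05, 5 of the 8 members differed, as did 2230 of the 8369 genes, and limma-voom on reads recovered from the RPKM values also called 0. All 8 log2 fold changes were above 0, with a median of 1.39 against -0.0393 over all genes tested. *moody* had a log2 fold change of 0.98 ± 0.20 (adjusted P = 0.119) and *Eaat1* of 1.53 ± 0.39 (adjusted P = 0.141). *Gat* had a log2 fold change of 1.49 with a 95% interval of -2.38 to 5.36, and *alrm* of 2.66 with an interval of -0.39 to 5.72, these being the members whose 2 Tet-GFP libraries differed most. The comparisons against wild type and against Tet-GFP share the Tet null libraries.

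In Tet CD IFM no member was called against Tet-GFP. This was 0 of 8 tested members by limma, 0 at an unadjusted P under 0.05 and 0 by limma-voom, where 0.00% of 8141 genes tested were called, 494 of them having an unadjusted P under 0.05. The median log2 fold change of the members was 0.143, with 5 above 0. *moody* had the narrowest interval, at 0.37 (-0.06 to 0.80), and *Gat* the widest, at 0.63 (-3.89 to 5.15). *repo* differed by 0.03 (-0.72 to 0.79) and *nrv2* by -0.07 (-1.80 to 1.67). The intervals of *Gat* and *alrm* include changes as large as those called in Tet null. For *nrv2* the interval ended below the 2.44 measured in Tet null against wild type. For *zyd* it was -0.748 to 1.256 and ended just below the 1.2596 measured there. Those Tet null values have an error of their own and another control line. The difference between the Tet null effect (against wild type) and the Tet CD effect (against Tet-GFP) was tested as 1 contrast over the 8 IFM libraries. It passed an adjusted P of 0.05 for 0 of 8 members, with 1 at an unadjusted P under 0.05 and 0 by limma-voom, where 0.683% of 8344 genes passed and 1563 had an unadjusted P under 0.05. The 1 member was *nrv2*, with a difference of 2.51 ± 0.77 (adjusted P = 0.177), followed by *alrm* with 3.16 ± 1.51 (adjusted P = 0.317).

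Between the control lines, Tet-GFP against wild type in IFM, 0 of 7 tested members were called by limma and 0 by limma-voom, where 0.00% of 8156 genes were called and 843 had an unadjusted P under 0.05. *moody*, the 1 member with an unadjusted P under 0.05, had a log2 fold change of -0.54 ± 0.15 (adjusted P = 0.393). The median over the members was -0.0139, and *zyd* fell below the limit on low values here.

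**Figure D2:**
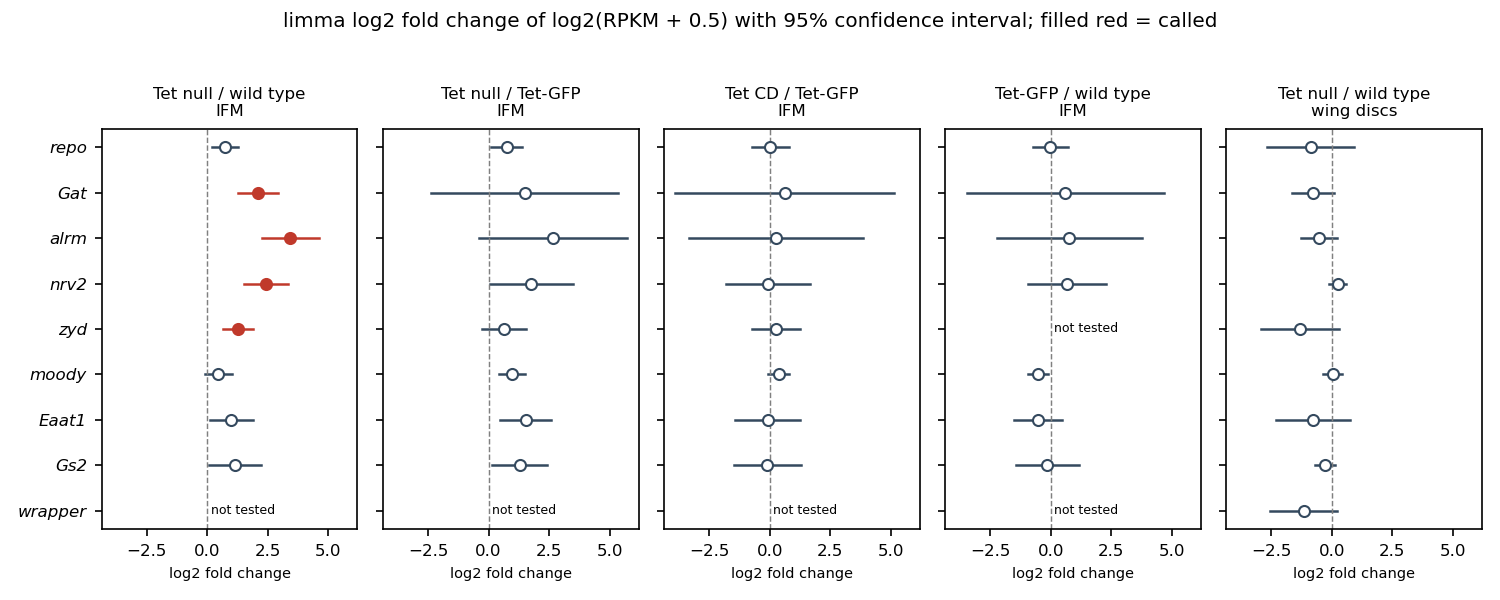
Log2 fold change of each glial gene (first line over second) with its 95% confidence interval in the 5 comparisons; filled red points passed an adjusted P of 0.05 and 1.5-fold. The 4 filled points all belong to Tet null against wild-type IFM, and the intervals of *Gat* and *alrm* are widest wherever Tet-GFP is compared.

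The members fell into groups by their values in single libraries, a description drawn from the same libraries as the tests. *Gat*, *alrm*, *nrv2* and *zyd* were all higher in Tet CD library 1 than in library 3, and all higher in Tet-GFP library 3 than in library 1. In Tet-GFP the ratio of library 1 to library 3 was 0.042 for *Gat*, 0.0857 for *alrm*, 0.331 for *nrv2* and 0.377 for *zyd*. *repo* shared this order with a ratio of 0.554, and so did *wrapper*, at 5 to 28 reads in these lines, with 0.669. *moody* had the reverse order in both lines, with ratios of library 1 to library 3 of 0.849 in Tet CD and 1.05 in Tet-GFP. *Eaat1* and *Gs2* had the opposite order in Tet-GFP, with ratios of library 1 to library 3 of 1.66 and 1.81, and in Tet null, Tet CD and wild type the first library was also the higher one. The 2 wild-type libraries differed 1.42-fold in *Eaat1* and 1.81-fold in *Gs2*, but 1.03-fold in *alrm* and 1.11-fold in *nrv2*. *Eaat1* and *Gs2* thus differed from *alrm* and *Gat* in which Tet-GFP library was the higher one.

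Most neuron markers moved with the first group. Of 18 neuron markers tested, 14 were called higher and 0 lower in Tet null against wild-type IFM, with a median log2 fold change of 2.1. Their summed level was 208 to 251 RPKM in Tet null, 99.3 to 132 RPKM in Tet CD, 75.1 to 139 RPKM in Tet-GFP and 74.3 to 87.9 RPKM in wild type, and like *Gat* and *alrm* it was higher in Tet CD library 1 and in Tet-GFP library 3 than in the other library of the line. None of the 18 was at 0 in any IFM library. *elav*, which marks neuron nuclei, had 1.32 and 2.09 RPKM in Tet null, against 1.4 and 1.45 RPKM in wild type, and was not called. Nor were *Rbp9*, *fne* and *ChAT*. *Rbp9*, the highest marker of the list in wild type, had 50.5 and 47.4 RPKM in Tet null, against 45.2 and 63.3 RPKM in wild type. Its library order was opposite to that of the sum, with 45.5 and 55.1 RPKM in Tet CD and 53.1 and 49.5 RPKM in Tet-GFP. *Gad1*, which makes GABA, had the largest log2 fold change of the list, 3.02 ± 0.27 (adjusted P = 0.0203). The part of neuron RNA in the changes of the glial genes was not tested. Of the flight muscle markers 0 of 9 were called (1 at an unadjusted P under 0.05), and 0 of 6 tested were called in each of the tracheal, fat body and hemocyte lists, with 3 tracheal markers at an unadjusted P under 0.05. Of 4 epidermis and tendon markers, 1 was called higher, *ple*, which encodes the tyrosine hydroxylase of cuticle and of dopamine neurons (log2 fold change 1.63 ± 0.30, adjusted P = 0.0474).

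**Figure D3:**
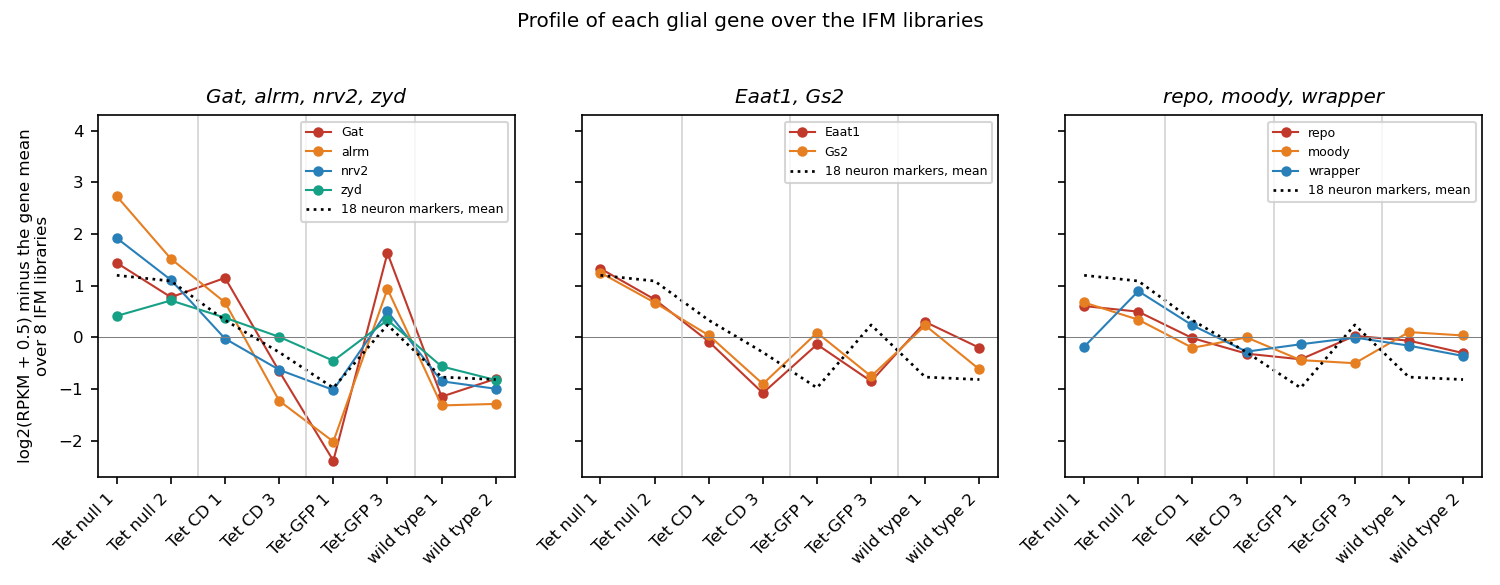
Log2(RPKM + 0.5) of each glial gene minus its mean over the 8 IFM libraries, with the mean of 18 neuron markers dotted; lines join libraries to guide the eye and grey verticals separate Tet null, Tet CD, Tet-GFP and wild type. *Gat*, *alrm*, *nrv2* and *zyd* are high in Tet-GFP 3 and low in Tet-GFP 1, as the mean of the neuron markers is, whereas *Eaat1* and *Gs2* have the opposite order there.

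Another 34 genes known for roles in fly glia were examined in the same way. In Tet null against wild-type IFM, 8 of 32 tested were called higher and 0 lower, and their median log2 fold change was -0.0463, close to that of all genes tested. Of 5 genes that handle transmitters 3 were called: *Gabat*, which breaks down GABA, had 7.29 and 6.41 RPKM in Tet null, against 1.38 and 1.10 RPKM in wild type (log2 fold change 2.08 ± 0.20, adjusted P = 0.0214). The same was true of *e*, which joins beta-alanine to dopamine and histamine (1.94, adjusted P = 0.0441), and of *Eaat2*, the paralogue of *Eaat1* (1.49, adjusted P = 0.0348). *Eaat2*, at 1.51 and 1.21 RPKM in Tet null, against 0.138 and 0.182 RPKM in wild type, passed the limit on low values only through its Tet null libraries. *Gs1*, the paralogue of *Gs2*, had 11.5 and 7.07 RPKM in Tet null, against 12.5 and 15.7 RPKM in wild type, and was not called.

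Of 14 barrier and septate junction genes, 2 were called in this whole muscle, both transporters known from the blood-brain barrier rather than junction proteins. *Mdr65*, a drug efflux pump, had 5.13 and 5.64 RPKM in Tet null, against 1.68 and 1.19 RPKM in wild type (1.61 ± 0.22, adjusted P = 0.03). The trehalose transporter gene *Tret1-1* had 117 and 159 RPKM in Tet null, against 35.1 and 31.5 RPKM in wild type (2.02 ± 0.27, adjusted P = 0.0308). The junction genes *Gli*, *Nrx-IV*, *Cont*, *Nrg*, *sinu*, *kune*, *Lac*, *Mcr* and *cora* had log2 fold changes of -0.80 to -0.28, and none was called. Nor were *pck* (-0.03), *vari* (0.64) and the sodium pump gene *Atpalpha* (1.19). *NLaz*, a lipocalin, had the largest change of the list, with 82.7 and 121 RPKM in Tet null, against 17.2 and 5.55 RPKM in wild type (3.28 ± 0.58, adjusted P = 0.0463). The remaining calls were the engulfment adaptor *ced-6* (1.06 ± 0.20, adjusted P = 0.049) and *axo* (1.44 ± 0.22, adjusted P = 0.0372). *axo* had 2.91 and 2.16 RPKM in Tet null, 5.58 and 2.91 RPKM in Tet CD, 4.31 and 2.22 RPKM in Tet-GFP and 0.524 and 0.704 RPKM in wild type, so wild type was below all other lines, and its log2 fold change in Tet null against Tet-GFP was -0.26. The engulfment receptor gene *drpr* had a log2 fold change of 0.54 (adjusted P = 0.163). Of the fate genes *gcm*, *gcm2*, *loco* and *pnt*, 2 were tested and 0 called, with 1, *pnt*, at an unadjusted P under 0.05 and a log2 fold change of -0.64. Among paralogues of the members, *nrv3*, a sodium pump subunit of neurons, had a log2 fold change of 2.79 ± 0.36 (adjusted P = 0.0291) and the exchanger gene *Nckx30C* of 2.32 ± 0.31 (adjusted P = 0.03), whereas *nrv1* had 0.54 (adjusted P = 0.236).

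By the root mean square difference of profiles over the 8 IFM libraries, the 5 of 8336 other genes most like the mean of the members were *dati*, *Pal2*, *Galphao*, *fwe* and *dpr1*, at 0.0981 to 0.127 log2 units. None of the 5 is on the glial or neuron lists, but these lists hold only chosen genes, so this does not tell the cell type of the 5. *Galphao*, a G protein alpha subunit gene, had 6.07 and 5.32 RPKM in Tet null, 3.88 and 2 RPKM in Tet CD, 1.28 and 3.44 RPKM in Tet-GFP and 2.05 and 1.80 RPKM in wild type. The 5 genes most like *repo* alone were *CG15312*, *CG42346*, *oaf*, *smog* and *rho-5*, at 0.0695 to 0.115 log2 units, a different set.

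In Tet null wing discs no member was called against wild type, and *Gat*, *alrm*, *nrv2* and *zyd* were not higher by the test as they were in IFM. This was 0 of 9 tested members by limma, 0 at an unadjusted P under 0.05 and 0 by limma-voom, where 1.67% of 12631 genes tested were called higher and 2.48% lower. An unadjusted P under 0.05 was reached by 2238 of those genes. The median log2 fold change of the members was -0.79, against -0.0752 over all genes tested, and it was -0.17 without wild-type library 2, over the 5 members that were then tested (-0.24 over all 9 with low values kept). Among the 9, 4 (*repo*, *zyd*, *Eaat1* and *wrapper*) passed the limit on low values only with that library in the mean. All 6 fat body markers were called higher in Tet null discs, with summed levels of 199 to 285 RPKM against 39.4 to 106 RPKM in wild type, and so were 3 of 7 hemocyte and 2 of 6 tracheal markers, whereas 2 of 5 muscle precursor markers (*twi* and *Him*) were called lower. Of the other 34 glial genes, 31 were tested in discs and 1, the lipocalin gene *GLaz*, was called, with a log2 fold change of -0.98 ± 0.26 (adjusted P = 0.0318). Of the neuron markers, 12 were tested in discs and 0 called, with 2 at an unadjusted P under 0.05. Their median log2 fold change was -0.814, and 1 was above 0. Their summed level was 55 RPKM in wild-type library 2, 23.5 and 29.2 RPKM in the other wild-type libraries and 22.2 to 22.9 RPKM in Tet null. The part of these other cell types in the disc values of the glial genes was not tested.

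*nrv2* had 55.0, 47.3 and 55.8 RPKM in Tet null discs, against 46.7, 35.8 and 52.0 RPKM in wild type, a difference of 0.24 in log2 (95% interval -0.11 to 0.60). *moody* had 4.53, 4.47 and 4.35 RPKM in Tet null discs, against 5.01, 4.33 and 3.82 RPKM in wild type, a difference of 0.03 (-0.38 to 0.43). *Gs2* had 7.84, 11.1 and 11.2 RPKM in Tet null discs, against 17.4, 8.81 and 11.8 RPKM in wild type, a difference of -0.29 (-0.72 to 0.15). These 3 genes, the best expressed of the 9 in discs, overlapped between the lines. *Gat* had 0.691, 1.08 and 0.608 RPKM in Tet null discs, against 0.916, 2.62 and 1.94 RPKM in wild type, and *alrm* had 1.32, 1.38 and 1.14 RPKM, against 1.76, 3.82 and 1.26 RPKM in wild type. Both overlapped, with log2 fold changes of -0.79 (adjusted P = 0.337) and -0.54 (adjusted P = 0.46).

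*zyd*, *Eaat1* and *wrapper* had all 3 Tet null disc libraries below all 3 wild-type libraries, a pattern seen in 12.5% of genes tested, and 0 members had the reverse, seen in 13.0%. All 3 passed the limit on low values only with wild-type library 2 in the mean, so their number cannot be set against that share. *zyd* had 0.00936, 0.126 and 0.124 RPKM in Tet null discs, against 0.847, 1.57 and 0.635 RPKM in wild type. Its values are whole multiples of 1 unit that make them 1, 11 and 14 reads in Tet null, against 66, 129 and 52 reads in wild type, and this unit is not that of the annotated exon length, so *zyd* levels of discs and IFM are on different lengths. The log2 fold change was -1.33 (95% interval -2.94 to 0.28, adjusted P = 0.39), and without wild-type library 2 and with low values kept it was -1.08 (adjusted P = 0.0628). *Eaat1* was separated narrowly, with a log2 fold change of -0.79 that was -0.21 without wild-type library 2 and with low values kept, and had 0.238, 0.199 and 0.347 RPKM in Tet null discs, against 0.40, 2.44 and 0.352 RPKM in wild type. *wrapper* had 0.154, 0.505 and 0.113 RPKM in Tet null discs, against 0.776, 2.99 and 0.515 RPKM in wild type (log2 fold change -1.16, adjusted P = 0.383). *repo* had 0.0905, 0.25 and 0.139 RPKM in Tet null discs, against 0.574, 2.44 and 0.0591 RPKM in wild type, and the lowest of the 6 values was a wild-type one. In wild-type library 2, *repo*, *Gat*, *Eaat1* and *wrapper* were within 1 RPKM of the 2.12 RPKM of the receptor genes, and *zyd* was below it. *zyd* was also below the receptor-gene median of the same library in Tet null disc libraries 1 (0.0477 RPKM) and 2 (0.132 RPKM), as *repo* was in wild-type library 3 (0.0974 RPKM).

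**Figure D4:**
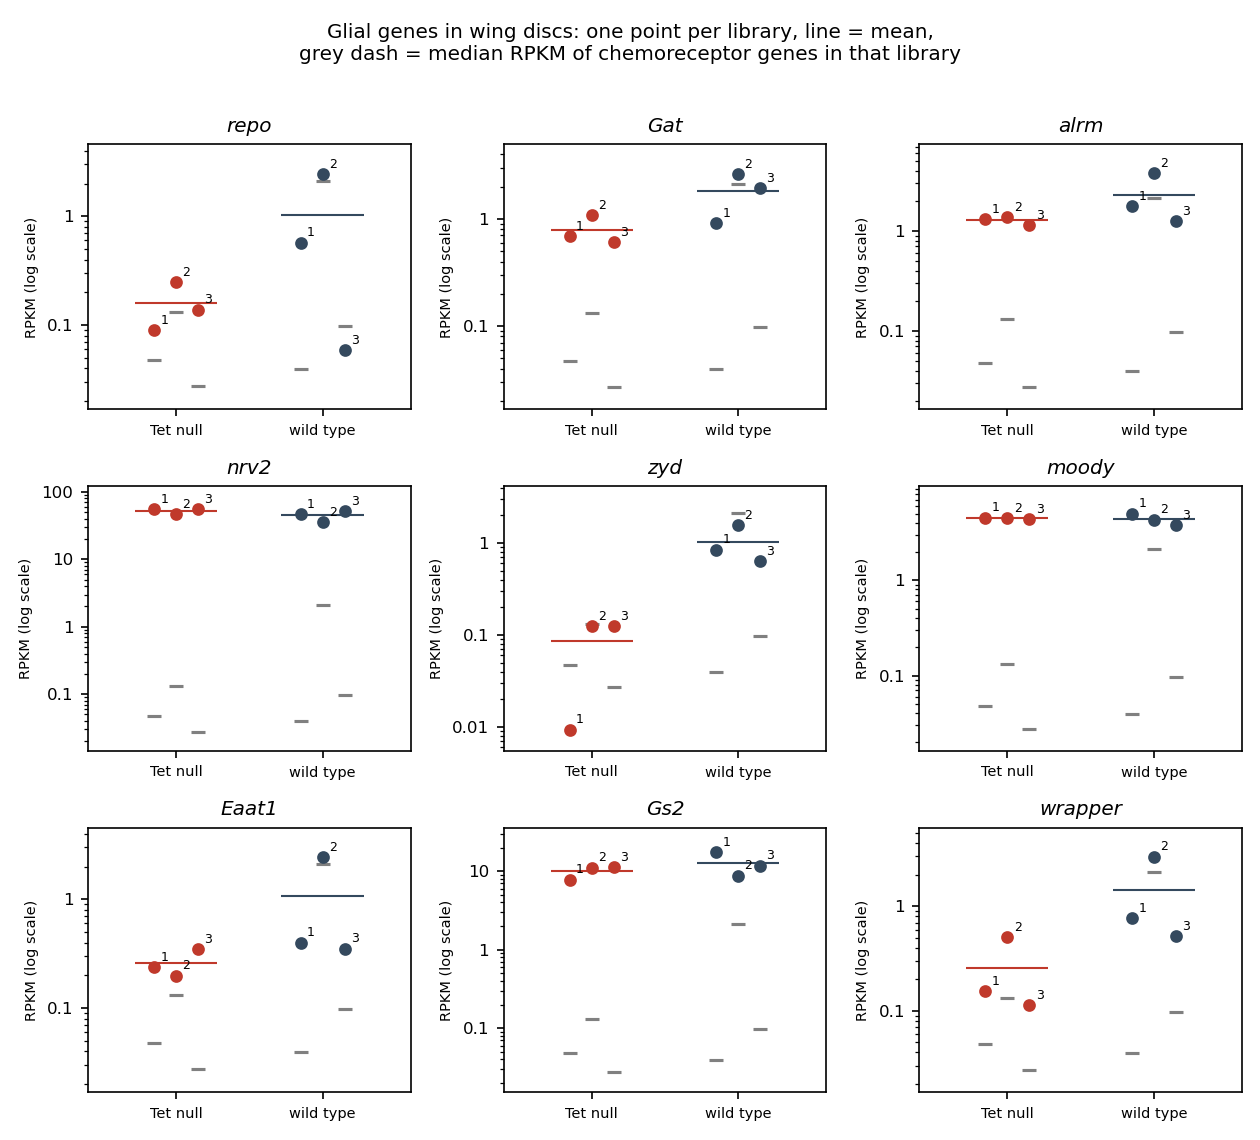
RPKM (log scale) of the 9 glial genes in each wing disc library of Tet null and wild type; points are libraries with their number, lines are group means, and grey dashes mark the median of 119 receptor genes in the same library. In wild-type library 2 the dash is at 2.12 RPKM, close to the points of *repo*, *Gat*, *Eaat1* and *wrapper*, whereas *nrv2* and *Gs2* lie above it in every library.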

How the data were processed

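Total RNA was sequenced as paired-end libraries. Per the labels and the study's methods, the authors trimmed reads, aligned them to dm6 with HISAT2 (2.1.0), counted them per gene with HTSeq (0.11.2) and deposited 1 table of RPKM per tissue, with decimal commas; 0 value columns were left out. The IFM columns of Tet CD and Tet-GFP are numbered 1 and 3, unlike their titles, and were matched by line only. No counts were used; reads were recovered from the RPKM steps and exon lengths of the Ensembl annotation of dm6 (BDGP6), which also gave the coordinates.

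Each pair of lines was fitted with limma (3.58.1, R 4.3.3; lmFit, eBayes with trend) on log2(RPKM + 0.5) over genes with a mean of at least 0.5 RPKM, with Benjamini-Hochberg adjustment over all of them; the fold change limit was 1.5. The scripts were tested on simulated data. The members, marker lists and tests were chosen with earlier results of these data known. All 9 members are named with their values in each tissue, and up to 6 called genes of each other list.

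In discs the same-numbered libraries deviated together (correlations 0.1757, 0.303 and 0.1549 over genes; Tet null 1 with wild type 3 also reached 0.191), so the numbers were taken as pairs in an alternative fit with a replicate block. Other constants, limits, scalings and libraries left out were also tried. The number of libraries limits the precision, and recovered reads carry counting error only.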

Additional observations from a re-analysis of the deposited data

Results flagged for a closer look

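*zyd* went in opposite directions in the tissues. All Tet null libraries were above all wild-type libraries in IFM (log2 fold change 1.26) and all were below them in wing discs (log2 fold change -1.33). *Eaat1* had the same arrangement, with a log2 fold change of 0.99 in IFM and of -0.79 in wing discs. The difference between the tissues was not tested, since each tissue has a table normalized on its own, and neither disc change passed the threshold. In discs both genes passed the limit on low values only with wild-type library 2, which stood apart, and without it and with low values kept the log2 fold changes were -1.08 for *zyd* and -0.21 for *Eaat1*. In discs the gap of *Eaat1* between the highest Tet null library (0.347 RPKM) and the lowest wild-type library (0.352 RPKM) was small. No group of 2 or 3 libraries was large enough to look for a single library far from the others by rule.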

How the results depend on the processing

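Tet null against wild-type IFM gave 4 called members, and 0 without a limit on low values or with all 4 IFM groups in one fit. The count stayed at 4 with median-ratio scaling, without a trend in the spread, by limma-voom and with the receptor-gene level subtracted. Leaving out any 1 library leaves 1 library in a line, so calls are not counted there. For Tet null against Tet-GFP the fit over all 4 groups called 1 member, *moody* (adjusted P = 0.041), against 0 otherwise. With a replicate block in IFM, where the 2 pairs are known only by their number, the count was 3 (*zyd* at adjusted P = 0.0752). The same-numbered libraries there deviated together over genes at a correlation of 0.08639 for Tet null with wild type and of 0.4749 for Tet CD with Tet-GFP. *zyd* also missed the threshold at a constant of 0.1 (0.0551) or 1 (0.0501). In discs the replicate block, like every other fit run, called 0 members, and it changed no other call. Leaving out 1 library turned the direction of uncalled members. For Tet CD against Tet-GFP the log2 fold changes ranged from -0.194 to 0.259 (*repo*), -1.38 to 2.63 (*Gat*), -1.21 to 1.74 (*alrm*), -0.831 to 0.696 (*nrv2*), -0.141 to 0.649 (*zyd*), -0.589 to 0.413 (*Eaat1*) and -0.57 to 0.372 (*Gs2*). For Tet-GFP against wild type they ranged from -0.24 to 0.213 (*repo*), -1.41 to 2.61 (*Gat*), -0.714 to 2.24 (*alrm*), -0.0994 to 1.43 (*nrv2*) and -0.563 to 0.287 (*Gs2*), and *repo* was at 0.0119 with median-ratio scaling and 0.014 with the receptor-gene level subtracted. *Gat* in Tet null against Tet-GFP ranged from -0.518 to 3.5, and *moody* in discs from -0.0591 to 0.116. The causes were not tested. Limma-voom on recovered reads, the subtraction of the receptor-gene level and the disc fit without both the limit and wild-type library 2 were added after the values were seen. *wrapper*, at 2 to 74 reads in IFM, was not tested there.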
